A study of Mus musculus with 8 samples.

Results

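The BCL2 apoptosis family was followed in RNA of the quadriceps femoris (QF), the large thigh muscle, of mice labelled as skeletal muscle knockouts of Grpel1 and of their controls. The members were the rows of the deposited gene table with the symbols Bcl2, Bcl2l1, Mcl1, Bax, Bak1, Bid, Bad, Bcl2l11, Bbc3 and Pmaip1, which made 10 of the 14012 genes measured. The knockout group held 4 mice labelled KO (Grpel1 smk -/-), and the control group 4 mice labelled WT (Grpel1 flox/flox). Both groups thus carried the floxed Grpel1 allele. In the knockouts, Cre-ERT2 was made from the human skeletal muscle α-actin (HSA) promoter and was switched on with tamoxifen, which was injected for 5 consecutive days from the age of 5 weeks. The muscle was taken when the disease had advanced, and the exact age at that point is not given for each library. The mice of the study were male. Whether the control mice carried Cre or received tamoxifen is not stated for these libraries, and if they received none, its effect cannot be told apart from that of the knockout. The promoter acts in muscle fibres, whereas the RNA came from the whole muscle with its vessels, connective tissue and immune cells.

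The 8 libraries held between 16017565 and 20361144 counts on genes. The factors by which edgeR's trimmed mean of M-values (TMM) corrects library size for composition were 0.747 to 0.844 among controls and 1.19 to 1.33 in the knockouts, and the 20 most abundant genes took 36.5 to 40.1% of the control counts and 19.7 to 23.5% of the knockout counts. Grpel1, which codes for the mitochondrial co-chaperone that was targeted, had a log2 fold change of -0.066 (SE 0.078, adjusted p = 0.49, edgeR). The count of the whole gene therefore does not check the labels, and every direction given here rests on them. The 8 markers of skeletal muscle fibres defined the tissue in every library. Their summed level was 222580 to 289860 CPM (counts scaled to library size with the TMM factor) among controls and 75747 to 110315 CPM among knockouts, with 6 of 8 markers lower and Myh1 higher.

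The BCL2 family decides whether the outer membrane of the mitochondrion stays intact. The effectors BAX and BAK1 form pores through which cytochrome c leaves, the anti-apoptotic members BCL2, BCL-XL (from Bcl2l1) and MCL1 hold the effectors in check, and the BH3-only proteins carry stress signals to both. In skeletal muscle, whose fibres are long-lived cells with many nuclei, the family has been studied in wasting, denervation and mitochondrial disease.

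What joins these genes is the BH3 motif, a short helix with an invariant leucine and aspartate that lets one member bind another. The motif is shown at the DNA level, because members of opposing roles share it. In Pmaip1 the search, which also restricted the residues beside the aspartate, found no match, and this does not show that the motif is absent. The coding stretch of 21 bases was read from the GENCODE transcripts of GRCm38 for the other 9 of the 10 members, 5′ to 3′ on the coding strand, with the codons of the leucine and the aspartate in capitals.
Bcl2: CTCcgccgggctgggGATgac
Bcl2l1: CTGagagaggcaggcGATgag
Mcl1: CTGcggcgcgtgggcGACggc
Bax: CTCcggcgaattggaGATgaa
Bak1: CTTgctctcatcggaGATgat
Bid: CTCgcccaaataggcGATgag
Bad: CTCcgaaggatgagcGATgag
Bcl2l11: CTGcggcggatcggaGACgag
Bbc3: CTGcggcggatggcgGACgac

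Each stretch lay within a single coding exon. For the anti-apoptotic members it was at chr1:106712581-106712601 (Bcl2, minus strand), chr2:152829703-152829723 (Bcl2l1, minus strand) and chr3:95659436-95659456 (Mcl1, plus strand). For the effectors it was at chr7:45466003-45466023 (Bax) and chr17:27022537-27022557 (Bak1), both on the minus strand. For the BH3-only genes it was at chr6:120897295-120897315 (Bid, minus strand), chr19:6950792-6950812 (Bad, plus strand), chr2:128147150-128147170 (Bcl2l11, plus strand) and chr7:16313773-16313793 (Bbc3, plus strand).

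Of the 10 members, 6 passed an adjusted p of 0.01 as higher in the libraries with the knockout label, by edgeR's quasi-likelihood test fitted on all genes, where 23.6% of the 14012 genes were called higher. None was lower, where 21.1% of all genes were called lower. The count of lower members was 0 also with DESeq2 and at an unadjusted p under 0.05. The 6 higher members came from each role: the anti-apoptotic Bcl2l1, the effector Bax and the BH3-only genes Bid, Pmaip1, Bbc3 and Bcl2l11. The remaining members, Bcl2, Mcl1, Bak1 and Bad, did not pass the test. The groups did not overlap for 7 of 10 members, each with the knockout libraries above the control libraries, while 53.4% of all genes had groups that did not overlap in 1 direction or the other. The median log2 fold change of the members was 1.19, and that of all genes tested 0.065.

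**Figure D1:**
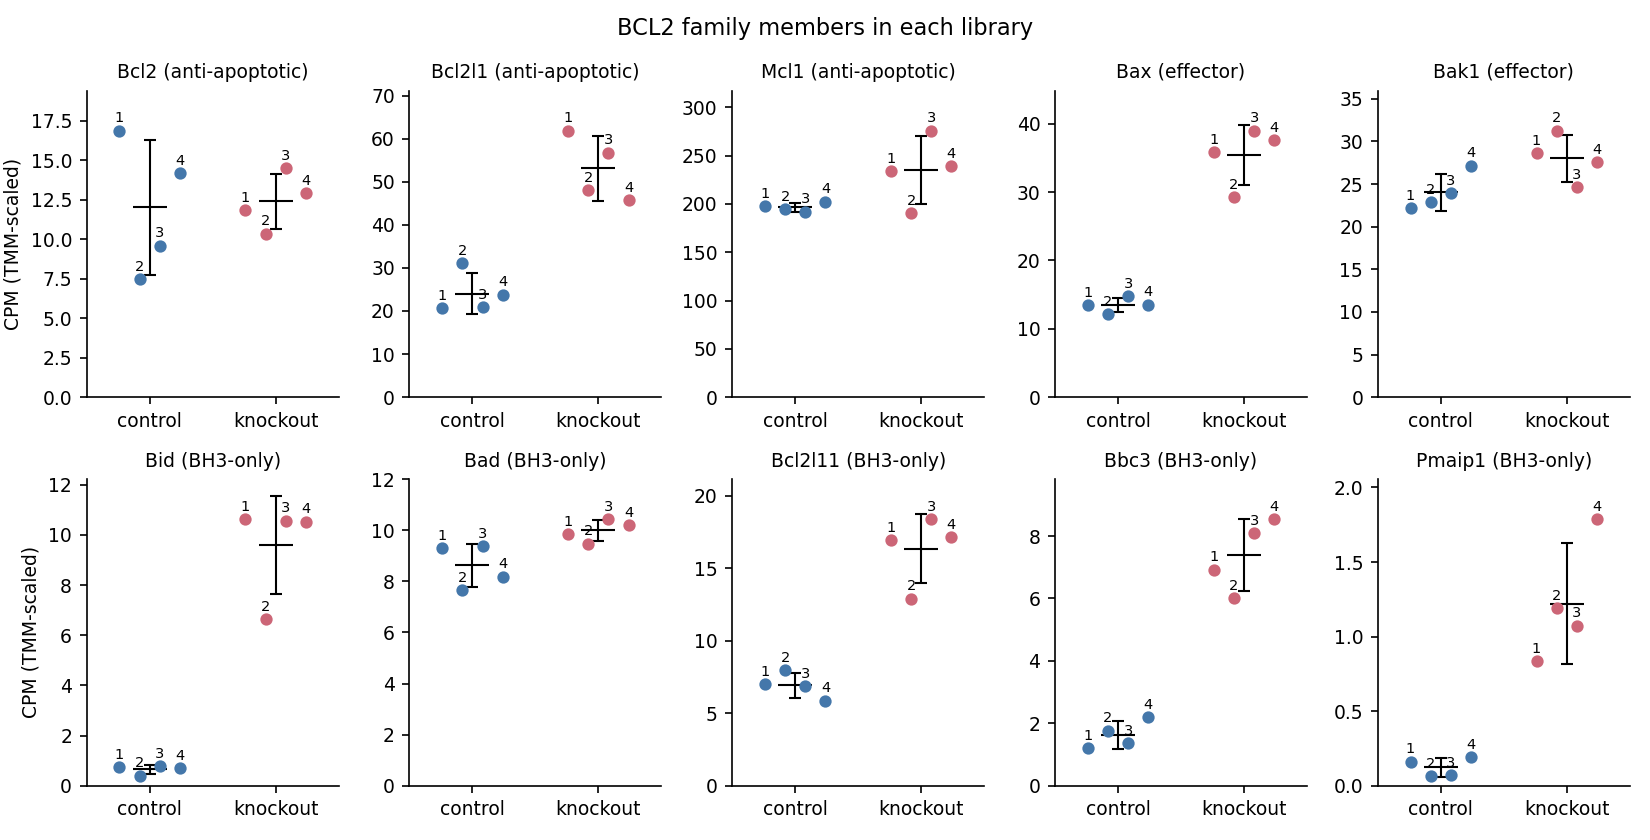
Level of each member in CPM (TMM-scaled, linear axis from 0) in the control and knockout libraries. Points are single libraries with their replicate number, and the black lines are the mean and SD of 4 libraries. Bid, Bbc3, Pmaip1, Bax, Bcl2l11 and Bcl2l1 separate the groups widely, Bad narrowly, and Bcl2, Mcl1 and Bak1 overlap.

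The anti-apoptotic members did not move as 1 group. Bcl2l1 codes for BCL-XL, a guardian of the outer membrane. Its counts, in the order of the replicate numbers, were 255, 474, 291 and 377 in the control libraries and 1484, 1050, 1375 and 1151 in the knockout libraries. These are 24.1 ± 4.87 CPM among controls and 53.1 ± 7.52 CPM among knockouts (each n = 4, SD). Every knockout library was above the highest control, replicate 2. On the log2 scale Bcl2l1 was higher by 1.14 (SE 0.15, adjusted p = 9.0e-05, edgeR), a 2.2-fold higher level. The span of Bcl2l1 (Entrez Gene 12048, chr2:152758732-152831728) overlaps that of Cox4i2 on the opposite strand, and whether the authors' counting used the strand is not stated.

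Mcl1 (Entrez Gene 17210, chr3:95658721-95663179) codes for a short-lived anti-apoptotic protein with a fast-turning-over message. Its counts were 2446, 2972, 2684 and 3214 among controls and 5610, 4166, 6688 and 6016 among knockouts. After scaling, these were 198, 195, 192 and 203 CPM among controls and 234, 191, 276 and 239 CPM among knockouts. Of the knockouts, 3 lay above all controls and knockout replicate 2 lay below them all. The log2 fold change was 0.26 with a 95% interval of 0.028 to 0.48, and the adjusted p of 0.052 (edgeR) missed the threshold. The exact permutation test over the 70 assignments of 4 against 4 gave a two-sided p of 0.14.

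Bcl2, the founding member of the family, had 209, 114, 134 and 225 counts among controls and 284, 226, 351 and 325 counts among knockouts. In CPM the controls ranged from 7.46 to 16.9 and the knockouts from 10.3 to 14.5, so that the controls enclosed the knockouts on both sides. Its log2 fold change was 0.05 with the widest interval among the members that were not called, from -0.46 to 0.56 (adjusted p = 0.87, edgeR), and the sign turned when control replicate 2, control replicate 3 or knockout replicate 3 was left out. A change of Bcl2 within this interval was not detectable at this spread between libraries.

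The effectors parted as well. Bax (Entrez Gene 12028, chr7:45461695-45466898), whose protein moves from the cytosol to the mitochondrion when activated, had 166, 186, 206 and 215 counts among controls and 860, 638, 945 and 946 counts among knockouts. This corresponds to 13.4, 12.2, 14.7 and 13.5 CPM among controls and 35.9, 29.2, 39.0 and 37.6 CPM in the knockouts. The lowest knockout library, replicate 2, was still far above the highest control. Bax was higher by 1.40 on the log2 scale (SE 0.10, adjusted p = 3.0e-06, edgeR), a 2.63-fold higher level.

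Bak1, which codes for the effector that resides on the outer membrane, had 274, 349, 334 and 431 counts among controls and 686, 683, 596 and 693 counts among knockouts. In CPM the controls were at 22.1, 22.8, 23.9 and 27.2 and the knockouts at 28.6, 31.3, 24.6 and 27.5. Knockout replicate 3 fell below control replicate 4, and the other knockouts lay above all controls. The log2 fold change was 0.22 (95% interval 0.0099 to 0.43, adjusted p = 0.067, edgeR; exact permutation p = 0.057). The span of Bak1 overlaps that of Ggnbp1 on the opposite strand.

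The BH3-only genes held the largest changes of the family. Bid (Entrez Gene 12122, chr6:120893119-120916820) codes for the protein that caspase 8 cleaves to pass a death receptor signal to the mitochondrion. It was close to silent in the controls, with 9, 6, 11 and 11 counts, and had 255, 145, 256 and 265 counts in the knockouts. The level was 0.65 ± 0.18 CPM among controls and 9.59 ± 1.97 CPM among knockouts (each n = 4, SD). Of the knockouts, 3 lay within 10.5 to 10.6 CPM and replicate 2 was at 6.64 CPM, still above every control. The log2 fold change of Bid was 3.88 (SE 0.25, adjusted p = 1.0e-06, edgeR), a 14.7-fold higher level.

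Bbc3 (Entrez Gene 170770, chr7:16309583-16318334) codes for PUMA, a BH3-only protein known as a target of p53 that binds every anti-apoptotic member. Its counts were 15, 27, 19 and 35 among controls and 166, 131, 196 and 215 among knockouts. In CPM the knockouts, at 6.0 to 8.55, all lay above the controls, at 1.21 to 2.21. This gave a log2 fold change of 2.16 (SE 0.20, adjusted p = 1.2e-05, edgeR).

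Pmaip1, also known as Noxa, codes for a BH3-only protein that binds mainly MCL1. It was the least abundant member, with 2, 1, 1 and 3 counts among controls and 20, 26, 26 and 45 counts among knockouts. No control library exceeded 3 counts, the number that a count of 0 still allows at 95%, and every knockout library did. The pooled rate was 10.1 times higher in the knockouts, with an exact 95% binomial interval of 4.75 to 25.7 that covers counting error only. The fitted log2 fold change was 3.26 (SE 0.43, adjusted p = 1.2e-04, edgeR), and its size depends on how the few control counts are treated.

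Bcl2l11 (Entrez Gene 12125, chr2:128126038-128162547) codes for BIM, a BH3-only protein known to be controlled by FOXO factors in several tissues. It had 87, 122, 96 and 93 counts among controls and 406, 282, 446 and 432 counts among knockouts. These are 7.03, 7.99, 6.87 and 5.86 CPM among controls and 16.9, 12.9, 18.4 and 17.2 CPM in the knockouts. As for Bax and Bid, knockout replicate 2 was the lowest of its group and the groups did not overlap. The log2 fold change was 1.24 (SE 0.14, adjusted p = 3.5e-05, edgeR), a 2.36-fold higher level.

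Bad codes for the BH3-only protein that 14-3-3 proteins hold in the cytosol when it is phosphorylated. Its counts were 115, 117, 131 and 130 among controls and 236, 207, 253 and 257 among knockouts, or 9.29, 7.66, 9.38 and 8.19 CPM and 9.84, 9.48, 10.4 and 10.2 CPM. The groups did not overlap, but the gap between control replicate 3 and knockout replicate 2 was small beside the spread of the controls. The log2 fold change of 0.21 (95% interval -0.0098 to 0.44) missed the threshold in edgeR, with an adjusted p of 0.091, while the exact permutation test gave 0.029, the smallest p that 4 against 4 allows. The span of Bad overlaps that of Gpr137 on the opposite strand.

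**Figure D2:**
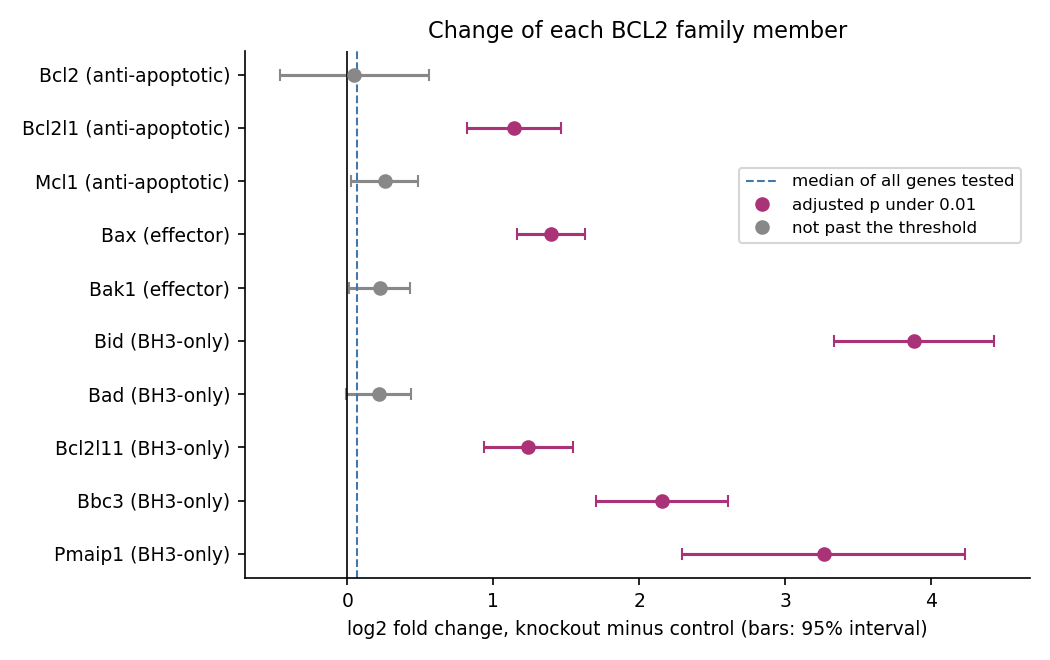
Log2 fold change of each member, knockout minus control, with its 95% interval from edgeR's fit (linear axis). Coloured points passed an adjusted p of 0.01, grey points did not, and the dashed line is the median of all genes tested at 0.065. Bid and Pmaip1 lie farthest to the right, and the intervals of Bcl2 and Bad include 0.

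Across the members, knockout replicate 2 was the lowest of the 4 knockouts in 7 of 10, and it was not the lowest for Bcl2l1, Bak1 and Pmaip1. Leaving it out kept all 6 calls. Leaving out any 1 library kept the log2 fold change of Bid within 3.70 to 4.01, that of Bbc3 within 2.05 to 2.34 and that of Bax within 1.31 to 1.46. Scaling by library totals alone, which moved the median of all genes to 0.73, called 9 of 10 members higher, with Mcl1, Bak1 and Bad added. Relative to that median, the log2 fold changes were 0.18 for Mcl1, 0.16 for Bak1 and 0.15 for Bad, and 3.81 for Bid and 1.33 for Bax.

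To compare levels between genes, CPM was divided by the summed exon bases of each gene. In the controls, Mcl1 led with 56.4 ± 1.29 CPM per kb (SD, n = 4), followed by Bax at 15.5 ± 1.21, Bak1 at 12.0 ± 1.11, Bcl2l1 at 7.53 ± 1.52 and Bad at 5.67 ± 0.55 CPM per kb. Below these were Bcl2 at 1.64 ± 0.58, Bcl2l11 at 0.97 ± 0.12, Bbc3 at 0.83 ± 0.23, Bid at 0.34 ± 0.093 and Pmaip1 at 0.046 ± 0.024 CPM per kb. Among neighbours in this order, the ranges of Bcl2 and Bcl2l11, and of Bcl2l11 and Bbc3, overlapped over the 4 control libraries, and those of all other neighbours did not. In control muscle each effector thus stood above each BH3-only gene.

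In the knockouts Mcl1 still led, at 67.4 ± 10.02 CPM per kb, and Bax remained the second at 40.8 ± 4.99. Bcl2l1, at 16.6 ± 2.35 CPM per kb, stood above Bak1, at 13.99 ± 1.38, but their ranges overlapped. Bid moved from the ninth place to the sixth, at 5.07 ± 1.04 CPM per kb, and Bcl2 from the sixth to the ninth, at 1.69 ± 0.24. Other neighbours with overlapping ranges were Bid and Bbc3, and Bcl2l11 and Bcl2. The lengths are those of all exons of a gene together, so a gene with long alternative exons, such as Bcl2 or Bcl2l11, is placed lower than its transcripts may stand.

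The summed level of the 10 members was 99.2 to 104 CPM per kb among controls and 135 to 176 CPM per kb among knockouts, without overlap. The anti-apoptotic members held 65.0 ± 1.73% of it among controls and 53.9 ± 1.83% among knockouts (each n = 4, SD). The share of the effectors was 27.2 ± 1.46% and 34.6 ± 1.62%, and that of the BH3-only genes 7.79 ± 0.47% and 11.4 ± 0.52%. None of these shares overlapped between the groups. The share of Mcl1 alone was 55.9 ± 0.69% and 42.3 ± 2.01%, and that of Bax 15.4 ± 1.19% and 25.7 ± 0.83%. Among the BH3-only genes, the summed level without Bad was 2.19 ± 0.15 CPM per kb among controls and 11.6 ± 1.90 CPM per kb in the knockouts. That sum holds only the BH3-only genes that were called higher. Bad, the most abundant BH3-only gene, was not called, at 5.67 ± 0.55 and 6.57 ± 0.28 CPM per kb.

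**Figure D3:**
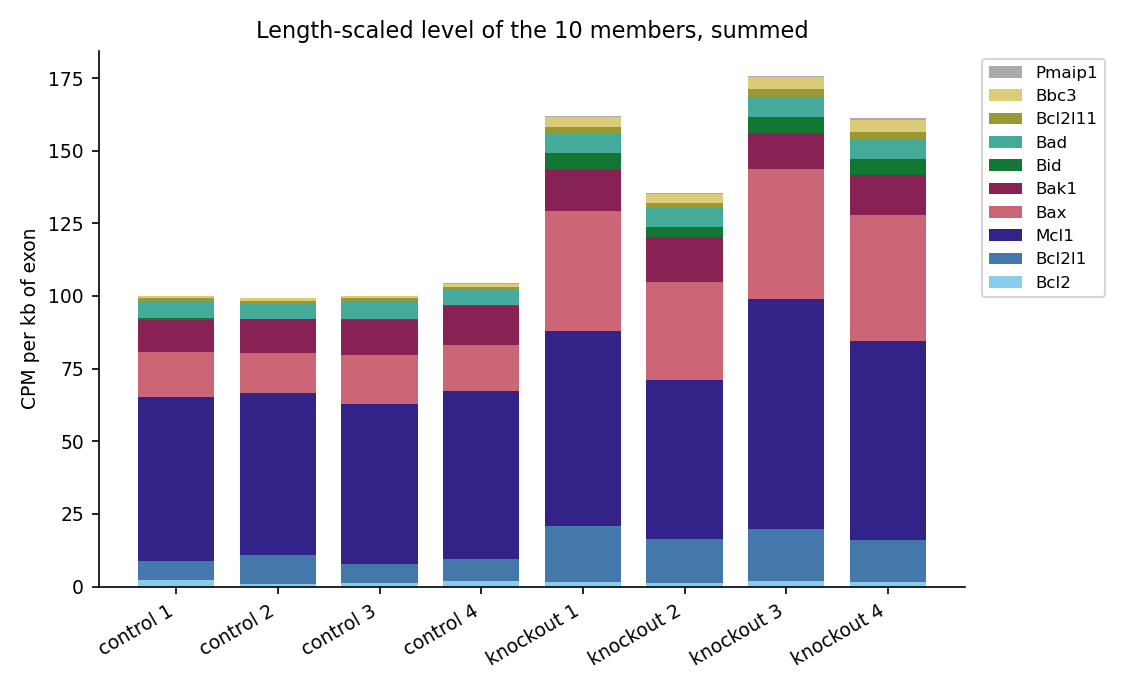
Level of the 10 members in each library in CPM per kb of exon, stacked (linear axis from 0). The 4 control bars end near 100, the knockout bars between 135 and 176, with Bax as the block that grows most and knockout replicate 2 as the lowest knockout bar.

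Ratios between members are often used to describe the balance of the family, and they do not depend on the scaling of the libraries. The ratio of Bax to Bcl2, on the CPM per kb scale, was 6.72, 13.8, 13.0 and 8.08 among controls and 25.6, 23.9, 22.8 and 24.6 in the knockouts. It did not overlap between the groups, although it varied more among the controls than among the knockouts. Against Bcl2l1, another of the 3 anti-apoptotic genes, Bax gave a ratio of 2.39, 1.44, 2.6 and 2.10 among controls and 2.13, 2.23, 2.53 and 3.02 in the knockouts, which overlapped. No ratio of Bax to Mcl1 was taken. Bax and Bcl2l1 were thus both higher, and the balance between them moved by less than its spread.

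Other pairs parted clearly. The ratio of Bax to Bak1 was 1.149 to 1.42 among controls and 2.15 to 3.65 in the knockouts. That of Bcl2l1 to Mcl1 was 0.114 to 0.174 among controls and 0.209 to 0.289 in the knockouts, so that BCL-XL message gained on MCL1 message. The ratio of Bbc3 to Bcl2l1 was 0.0921 to 0.150 and 0.181 to 0.302. These ratios are given as values with no test, and all but Bax to Bcl2l1 were without overlap.

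**Figure D4:**
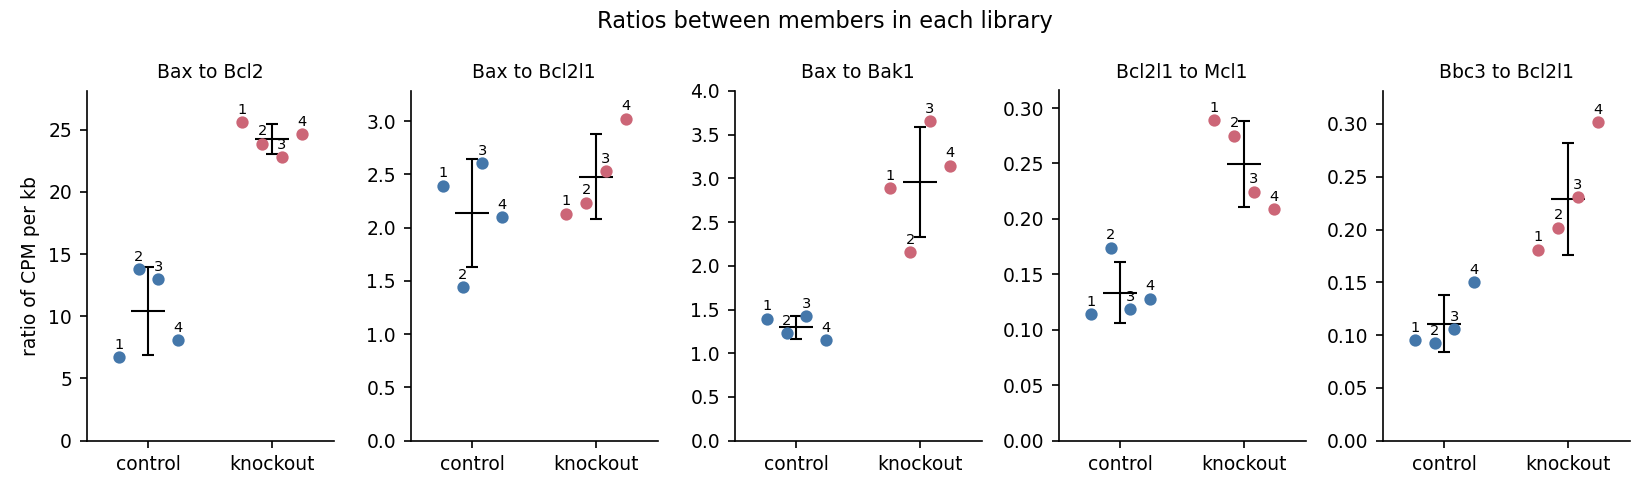
Ratios of CPM per kb between pairs of members in each library (linear axes from 0). Points carry the replicate number, and black lines are the mean and SD of 4 libraries. The groups are apart in every pair shown except Bax to Bcl2l1, in which control replicates 1 and 3 lie among the knockouts.

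The promoters of the members in RefSeq's table, all but Pmaip1, were looked at for the letters of binding motifs of factors that are known to act on the family. The windows were those of RefSeq on GRCm38.p6, from 250 bases before to 50 after each start, 15 windows for 9 members. A p53 half-site was in the Bax window, 201 bases before the start, and in 8.36% of all 32851 windows. The FOXO motif TGTTTAC, read on both strands, was in a window of Bcl2l11 and in one of Bbc3, and in 3.65% of all windows. The E-box CACGTG was in windows of Bax and Bbc3 and in 7.15% of all, and the motif TGATGNAA, to which ATF4 and CHOP bind, was in none of these 15 windows and in 3.97% of all. No match overlapped another. A match is only a description of the letters, and the absence of one says only that these letters are not in the window. The 250 bases before the start are shown for the windows of Bcl2l11, Bbc3 and Bax that hold the FOXO motif or the p53 half-site, with the matches in capitals.
Bcl2l11: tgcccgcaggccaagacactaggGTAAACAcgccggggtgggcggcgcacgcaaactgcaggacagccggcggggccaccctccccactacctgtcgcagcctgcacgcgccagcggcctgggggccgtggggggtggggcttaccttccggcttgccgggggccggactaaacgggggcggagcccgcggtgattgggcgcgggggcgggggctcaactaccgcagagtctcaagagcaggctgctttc
Bbc3: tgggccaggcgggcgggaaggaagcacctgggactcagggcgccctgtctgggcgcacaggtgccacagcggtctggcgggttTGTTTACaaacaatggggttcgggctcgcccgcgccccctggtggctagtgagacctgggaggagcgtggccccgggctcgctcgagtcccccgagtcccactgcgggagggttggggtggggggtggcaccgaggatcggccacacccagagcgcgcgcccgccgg
Bax: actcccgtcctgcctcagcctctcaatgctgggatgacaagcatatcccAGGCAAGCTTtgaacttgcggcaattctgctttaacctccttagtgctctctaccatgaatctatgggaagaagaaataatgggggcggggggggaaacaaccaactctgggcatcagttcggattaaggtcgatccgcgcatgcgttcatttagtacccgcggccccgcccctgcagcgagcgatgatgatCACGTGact

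The Bcl2l11 stretch was at chr2:128125788-128126037 on the plus strand, and its FOXO motif, on the reverse strand, began 227 bases before the start. The Bbc3 stretch was at chr7:16310011-16310260 on the plus strand, within the span of the gene and ahead of an internal start, with the FOXO motif 167 bases before that start. The Bax stretch was at chr7:45466899-45467148 on the minus strand, with an E-box 9 bases before the start and the p53 half-site farther up. Another E-box of the Bax window began 35 bases after the start, outside the stretch shown. No annotated exon lay in these stretches.

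The rest of the pathway was described with 11 lists, of which 103 of 111 genes were in the table. The remaining 8, among them Bcl2a1a, Fasl, Tnf and Trp73, were not analysed here. Of the 103 genes, 33 were called higher and 19 lower, beside the 23.6% and 21.1% of all genes given above. The list medians on the log2 scale, beside 0.065 for all genes, were lowest for the outer membrane and pore partners (-0.42) and the MCL1 turnover genes (-0.27). They were highest for the p53 targets outside the family (0.93) and the transcription factors (0.77), and between 0.045 and 0.55 for the other lists. Among further relatives of the family, 1 of 11 was higher and 1 lower, and their median on the log2 scale was 0.045. Bok, an effector-like relative of Bax, was higher, at 1.86 ± 0.52 CPM among controls and 3.94 ± 0.79 CPM in the knockouts (log2 fold change 1.07, adjusted p = 0.0027, edgeR). Bcl2l13, a mitophagy receptor of the outer membrane, was lower by edgeR's scaling (-0.39, adjusted p = 0.0010) but had a log2 fold change of 0.28 when only library totals were used. With those totals the median of all genes was 0.73.

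Of the 7 genes listed as outer membrane and pore partners, 4 were lower and 1 higher under TMM. Library totals alone gave 2 lower and 3 higher, with a list median of 0.25 instead of -0.42. That scaling also moved the median of all genes to 0.73, so the list median stayed below it. Slc25a4, the adenine nucleotide carrier of muscle, had a log2 fold change of -1.45 (3962 ± 336 CPM among controls and 1446 ± 116 CPM among knockouts, adjusted p = 2.4e-06, edgeR). Slc25a5, the carrier isoform of most other tissues, had one of 1.68 (41.6 ± 5.0 and 133 ± 14.4 CPM, adjusted p = 1.3e-06). The carriers thus moved in opposite directions. Vdac2, which codes for the channel that holds BAK1 on the membrane, had a log2 fold change of -0.42, which was 0.25 under library totals alone.

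Downstream of the pore, 4 of 13 genes of the apoptosome and effector caspases were higher and 3 lower. The genes called lower were Cycs, which codes for cytochrome c, the nuclease gene Endog and Dffa, which codes for the inhibitor of the caspase-activated nuclease. Of 8 genes named after the inhibitor of apoptosis proteins (IAP), 3 were higher and 2 lower. Only Birc3 of the higher ones stayed past the threshold in all 16 alternative fits. Without control replicate 2, control replicate 4 or knockout replicate 2, the count of higher IAP genes was 1. Birc3 was higher (8.01 ± 1.14 and 17.1 ± 3.13 CPM, log2 fold change 1.10, adjusted p = 1.7e-04). Xiap, which codes for the best known caspase inhibitor, was lower, with a log2 fold change of -0.38 that turned to 0.29 under library totals alone. Under that scaling the median of all genes was 0.73.

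Bid also receives the signal of the death receptors. Of 16 genes listed around that pathway, not all of them receptors that signal to BID, 5 were higher and 1, Fas, lower. The call of Fas was lost in 8 of 16 alternative fits, of which 6 left out a library (control replicates 2, 3 and 4, and replicates 1, 2 and 4 of the knockouts). The sign of its log2 fold change turned under library totals alone, where the median of all genes was 0.73. Tnfrsf10b, the receptor for TRAIL, was at 2.02 ± 0.66 CPM among controls and 8.77 ± 1.0 CPM in the knockouts (log2 fold change 2.11, adjusted p = 1.7e-05, edgeR). Tnfrsf12a, the receptor for TWEAK, was at 24.3 ± 6.63 and 61.1 ± 7.14 CPM (1.32, adjusted p = 1.1e-04). Casp8, whose protein cleaves BID, had a log2 fold change of -0.21 (adjusted p = 0.36) and did not pass the test. Of the 3 ER and inflammatory caspases, Casp12 was lower (24.9 ± 2.23 and 4.43 ± 0.39 CPM, log2 fold change -2.49, adjusted p = 1.2e-07) and Casp4 higher (0.97 ± 0.44 and 2.29 ± 0.29 CPM, 1.24, adjusted p = 0.0050), a call that was lost when any of 4 single libraries was left out, with adjusted p-values of up to 0.017.

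Of 11 transcription factors known to act on family members, 7 were higher and 1 lower. The lower one was Jun, at 110 ± 14.5 and 74.2 ± 6.95 CPM (log2 fold change -0.57, adjusted p = 0.0013, edgeR). Under library totals alone its log2 fold change was 0.10, where the median of all genes was 0.73. Ddit3, which codes for CHOP, a stress factor known to act on Bcl2l11, Bbc3 and Tnfrsf10b, had 10.2, 10.3, 10.8 and 10.8 CPM among controls and 50.5, 78.3, 55.3 and 74.9 CPM in the knockouts (log2 fold change 2.62, adjusted p = 5.9e-07, edgeR). Unlike most members, it was highest in knockout replicate 2. Atf4, Atf3, Egr1 and Myc were also higher, with log2 fold changes of 1.26, 1.74, 1.92 and 2.98 and adjusted p-values of 3.0e-06, 0.0027, 1.7e-05 and 8.5e-08. Trp53 itself, at 16.8 ± 2.31 and 28.6 ± 1.56 CPM, had a log2 fold change of 0.77 (adjusted p = 1.3e-04), and Foxo1 and Foxo3 did not pass the test (0.02 and 0.44, adjusted p = 0.90 and 0.036).

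Genes outside the family that are known as p53 targets were higher in 7 of 12 cases and lower in 1. Cdkn1a, which codes for the cell cycle inhibitor p21, was at 22.8 ± 6.25 CPM among controls and 274 ± 32.6 CPM in the knockouts (log2 fold change 3.58, adjusted p = 4.1e-07, edgeR). This change was near that of Bid in size. Sesn2, Eda2r, Gadd45a and Zmat3 had log2 fold changes of 3.60, 2.68, 2.54 and 1.16, with adjusted p-values of 7.0e-07, 1.1e-06, 1.2e-06 and 1.8e-06. Genes of this list, Sesn2 and Gadd45a among them, are known targets of ATF4 or CHOP as well. Against the list, Ccng1 was lower (1361 ± 228 and 474 ± 52.4 CPM, log2 fold change -1.52, adjusted p = 8.7e-06), and Mdm2, the classical feedback target, had a log2 fold change of 0.17 (adjusted p = 0.045).

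Among proteins that act on family members after translation, MCL1 turnover genes were lower in 3 of 7 cases and higher in none under TMM. Library totals alone gave 1 lower and 4 higher, with a list median of 0.40 instead of -0.27. The median of all genes was 0.73 under that scaling, so the list median stayed below it. Usp13, a deubiquitinase of MCL1, was at 385 ± 30.7 CPM among controls and 174 ± 22.7 CPM in the knockouts (log2 fold change -1.14, adjusted p = 8.9e-06, edgeR). The list mixes genes of opposite action on MCL1, so its counts give no direction for the protein. Of the 14-3-3 genes, whose proteins bind BAD, 2 of 7 were higher and 1, Ywhae, lower, a call that was lost when control replicates 1, 2 and 3, or replicates 1, 2 and 4 of the knockouts, were left out singly, and whose sign turned under library totals alone. Sfn was at 1.6 ± 0.48 and 3.59 ± 0.36 CPM (1.17, adjusted p = 0.0011). Among 8 ER and autophagy partners of BCL2 and BCL-XL, 2 were higher and 1 lower. The lower one was Itpr1, an IP3 receptor gene, at 48.1 ± 9.76 and 15.7 ± 5.40 CPM (-1.61, adjusted p = 2.2e-04). The other IP3 receptor genes, Itpr2 and Itpr3, did not pass the test (0.57 and 0.22, adjusted p = 0.051 and 0.25, edgeR).

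**Figure D5:**
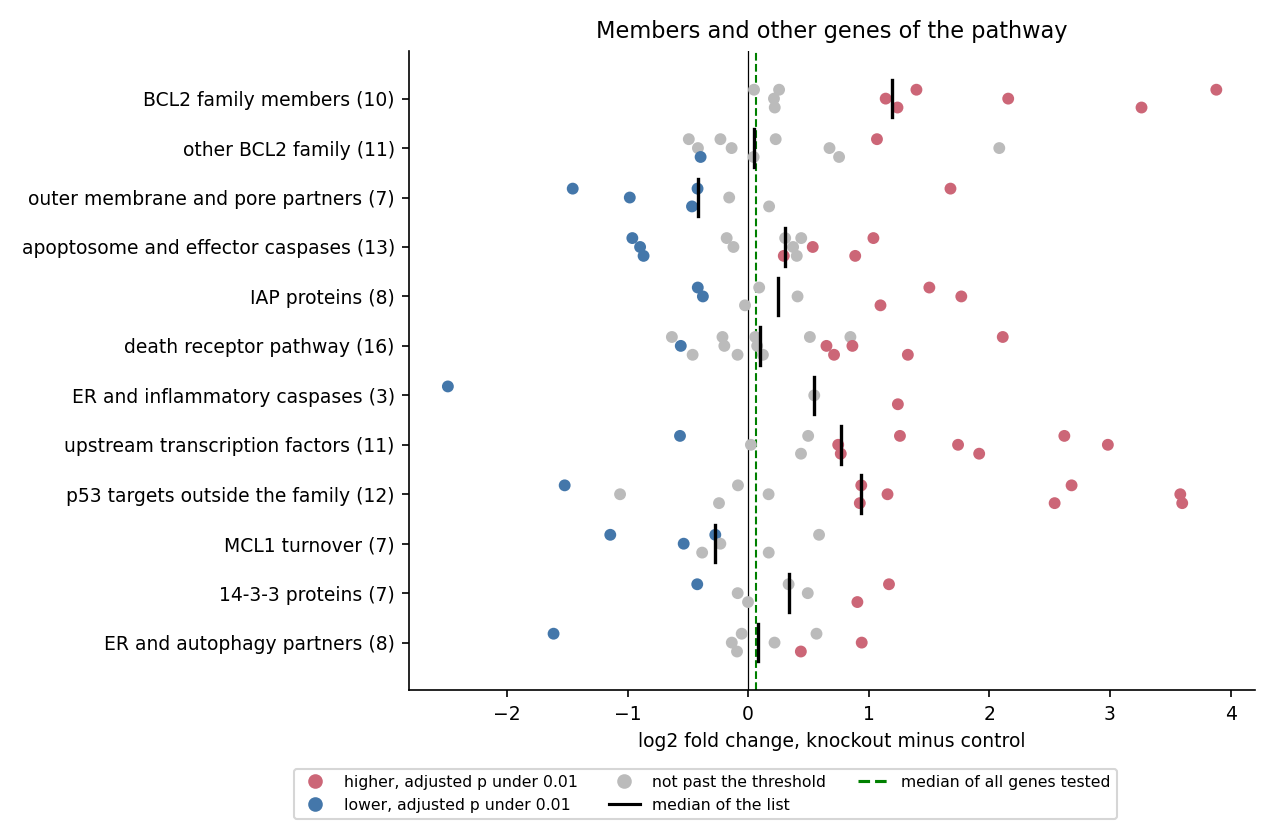
Log2 fold change, knockout minus control, of the members and of the genes of 11 other lists, with the number of genes in the table in brackets (linear axis). Red points were called higher and blue points lower at an adjusted p under 0.01, short black lines are list medians and the dashed line is the median of all genes. The members have a median of 1.19, the p53 targets outside the family one of 0.93, and the outer membrane and pore partners one of -0.42.

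The genes whose pattern over the 8 libraries was most like that of Bid, by the root mean square difference of centred log2 CPM over 11528 genes, were Cpne2 (0.22), Slc6a9 (0.28) and Nrcam (0.29). They had log2 fold changes of 3.95, 3.41 and 3.79, which the measure itself keeps near that of Bid. Cpne2 was more abundant than Bid throughout, at 9.17 ± 1.24 CPM among controls and 141 ± 25.2 CPM among knockouts.

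The members are expressed in many cell types, and in whole muscle a lower number of cells of a type and less RNA per cell cannot be told apart. Markers of other cells moved with the groups to different degrees. Of 7 macrophage markers Cd68 alone was called, as higher, and their summed level was 65.0 to 161 CPM among controls and 125 to 228 CPM among knockouts. Of the neutrophil markers analysed, S100a8 was higher (0.37 ± 0.47 and 22.8 ± 10.7 CPM) and S100a9 was not called (0.59 ± 0.64 and 1.03 ± 0.76 CPM). Their sum, at 0.25 to 2.59 and 15.3 to 36.9 CPM, thus rested mostly on S100a8 in the knockouts. Endothelial markers were lower in 5 of 7 cases, with a sum of 311 to 461 and 231 to 259 CPM, fibroblast markers in 2 of 5 cases, and markers of adipocytes, Schwann cells and erythroid cells in none. Satellite cell markers were higher in 2 and lower in 1 of 4 cases, smooth muscle and pericyte markers lower in 2 of 3, and lymphocyte markers lower in 1 of the 3 analysed. The part that any of these had in the levels of the members was not tested.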

How the data were processed

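RNA of 8 QF muscles was sequenced, 1 library per mouse with an animal identifier of its own. The authors captured polyadenylated RNA, prepared libraries with the strand-specific NEBNext Ultra II Directional kit and, as deposited, gave raw counts of read pairs on exons per gene, for which reads were demultiplexed with bcl2fastq 2.20.0.422, trimmed with cutadapt, mapped to GRCm38 with STAR 2.5.4b and counted with Rsubread, without duplicate, chimeric or multimapping pairs. Genes with few reads over all libraries had been removed by the authors, and the lowest total left was 51 counts. The summed exon bases per gene come from the same table. FPKM values and the authors' DESeq2 columns (fold changes, standard errors and p-values) were not used.

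All 14012 genes were fitted with edgeR 4.0.16 (R 4.3.3), using TMM factors and the quasi-likelihood test with the group as the only term. Calls were made at a Benjamini-Hochberg adjusted p under 0.01 over all genes. CPM uses TMM-scaled sizes, and log2 CPM a prior count of 2. Intervals are 95% intervals, SDs are over 4 libraries, and permutation tests were exact, two-sided and over 70 assignments. Replicates of a group differed beyond sampling noise, with 16.8 to 42.5 for chi-square over its degrees of freedom. At these depths 3 counts corresponded to 0.12 to 0.24 CPM, and counting intervals cover counting error only. DESeq2 1.42.0, other scalings, filters, a stricter and a looser threshold, a block and each library left out in turn were tried as alternatives. The procedure was tested on simulated data for this comparison with 13264 genes, and edgeR recovered 70% of the changes of 1 and 94.9% of those of 2 on the log2 scale. Only 100 genes were changed by 1 and 99 by 2, up or down, with no difference in composition built in. The recovery need not hold for these libraries, and the scaling was not tested by it.

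The members and lists were chosen with earlier results of these data known. Genes named from the lists had an adjusted p under 0.01, a log2 fold change of at least 1 in size, a mean of 50 counts in the higher group and no overlap, at most 25. A gene that this rule would name is not reported here. Bcl2l13, Vdac2, Fas, Ywhae, Cycs, Endog, Dffa, Xiap, Casp8, Trp53, Foxo1, Foxo3, Jun, Mdm2, Itpr2 and Itpr3 were chosen after their values were seen. Coding stretches were found by translating the longest coding transcript of each gene in GENCODE vM21 (GRCm38, the build of the files). The search was for the leucine and aspartate of the BH3 core at their fixed spacing. It also required glycine, alanine or serine before the aspartate, and aspartate, glutamate, glycine or asparagine after it. Without a match to all of these, a gene may still hold the motif. The p53 half-site and the other motifs were searched on both strands. Of the members, 9 matched the RefSeq promoter table by symbol.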

Additional observations from a re-analysis of the deposited data

Results flagged for a closer look

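In 80 groups of 4 libraries (the members, the named genes of the lists and the ratios and shares, each in both groups) the gap of the farthest library to its nearest neighbour was compared with the range of the group, and 3 groups had a library that stood apart, where chance marks about 1 in 20. Bid was at 6.64 CPM in knockout replicate 2 and at 10.5 to 10.6 CPM in the other knockouts. Tnfrsf10b was at 7.28 CPM in the same library and at 9.13 to 9.41 CPM in the other knockouts. Egr1 was at 9.95 CPM in control replicate 3 and at 4.91 to 5.57 CPM in the other controls. Without knockout replicate 2, all 6 higher members stayed past the threshold.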

How the results depend on the processing

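The count of 6 higher and 0 lower members was the same with RLE and upper-quartile factors, without the 20 most abundant genes, after filterByExpr, with DESeq2, with the robust fit, at an adjusted p under 0.05, with a log2 fold change of at least 0.5 and in each of the 8 fits that left out 1 library. Library totals alone gave 9 higher members and called 8498 of all genes higher and 873 lower, against 3303 and 2962. On the pathway lists, library totals alone gave 71 higher and 8 lower genes against 33 and 19, and a log2 fold change of at least 0.5 left 12 lower genes. With 1 library left out, the lists gave 29 to 32 higher and 16 to 19 lower genes. The log2 fold change of Bcl2 ranged from -0.13 to 0.25 over these fits, with -0.13, -0.044 and -0.067 without control replicate 2, control replicate 3 and knockout replicate 3. Atf3 had an adjusted p of 0.011 in the robust fit. With the replicate number as a block, 6 members were higher and 0 lower, and no call of a member changed. Same-numbered libraries had correlations of 0.12, 0.0031, 0.42 and 0.14 of their deviations, and since 1 of them was under 0.1 the numbers were not taken as pairs, although 3 of 4 controls correlated best with the knockout of their own number. The cause of the difference under library totals was not tested, but that scaling leaves out the correction for composition. Members with few counts, above all Pmaip1, are limited by depth.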
